A study of Homo sapiens with 14 samples.

Results

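The collagen, laminin and integrin genes are those whose single array-annotation symbol begins with COL and a digit, with LAMA, LAMB or LAMC and a digit, with ITGA or ITGB and a digit, or is ITGAV. The rule found 73 of the 18377 genes measured, with 43 collagen, 10 laminin and 20 integrin chains, and used no measured value. Binding proteins and an antisense RNA that share these prefixes (ITGB1BP1, ITGB1BP2, ITGB3BP, COL18A1-AS1) were left out, as were 2 transcript clusters with several symbols. The data come from MiaPaCa2 cells, an established line from a human pancreatic carcinoma, and from 14 Affymetrix arrays that measure whole transcripts, with 1 array for each combination of siRNA, medium and time. Values are log2 signals, and a difference of 1 is a 2-fold difference.

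The NF-kB set held 6 arrays of cells transfected with siRelA, siRelB or siCtrl, each kept for 9 h in EBSS or in mock medium. The Nupr1 set held 8 arrays of cells transfected with siNupr1 or siCtrl, each sampled at 0, 3, 6 and 9 h of EBSS. All cells were transfected, and siCtrl is a scrambled siRNA. EBSS is a balanced salt solution that, in the labels, holds no glucose, amino acids or growth factors, so it serves as starvation. The labels do not say what mock medium contains, and for the 0 h arrays the title and the source description name different media. For the 9 h array of siNupr1 the title carries another siRNA abbreviation than the description, which gives siNupr1. The 0 h arrays were grouped as not starved, and the 9 h array as siNupr1. The labels name no separate cultures, and no combination has a second array. The p-values thus measure only the spread of these arrays around a model in which effects of siRNA and of medium or time add.

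Collagens are triple-helical proteins of the extracellular matrix: fibrillar collagens build fibres, type IV collagen forms the network of basement membranes, and type VI collagen forms beaded filaments. Laminins are trimers of an alpha, a beta and a gamma chain that organise basement membranes. Integrins are receptors of 1 alpha and 1 beta chain that bind these proteins and couple them to the cytoskeleton. In pancreatic cancer tissue most of the abundant fibrillar collagen comes from stromal fibroblasts, and carcinoma cells in culture make their own smaller repertoire.

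The keratin genes KRT8, KRT18 and KRT19 had log2 signals between 9.54 and 13.3 on all arrays, and KRT7 lay at 5.76 to 6.62. VIM, an intermediate filament gene of mesenchymal cells, lay between 12.42 and 12.85. Of the other mesenchymal markers ZEB1 (5.68 to 7.37) passed the filter on dim genes, while CDH2 (4.58 to 5.17) and SNAI2 (3.91 to 4.93) were dim. EPCAM and CDH1, which define most epithelia, were dim. Of 8 fibroblast markers other than collagens only ACTA2, a smooth muscle actin, passed the filter on dim genes, and DCN and LUM, which code for small matrix proteoglycans, lay at 2.54 to 3.23 and at 2.1 to 2.66. Of 4 measured leukocyte markers PTPRC and CD3E were dim, while CD68, a lysosomal gene (7.69 to 8.88), and CD14 (5.2 to 6.24) passed the filter. All 4 endothelial markers, PECAM1 and VWF among them, were dim. Each siRNA lowered its target: NUPR1 fell by 0.87 ± 0.10 (SE) with siNupr1, RELA fell by 2.49 ± 0.13 with siRelA, and RELB fell by 1.32 ± 0.17 with siRelB. RELB also fell with siNupr1 (-0.67 ± 0.12) and NUPR1 with siRelB (-0.43 ± 0.14).

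Promoter sequences are shown for members on which the results below turn: the neighbouring COL4A1 and COL4A2, and the members that moved most with an siRNA and have an entry. RefSeq (GRCh38.p14) held 72 promoter windows for 53 of the 73 members, each running from 250 bases before to 50 bases after a start. The genes of the type IV chains COL4A1 and COL4A2 lie head to head on chromosome 13, with starts 127 bases apart on opposite strands and windows that share 226 bases. Capitals mark the CCAAT box (CCAAT or its reverse ATTGG), which in both windows is the same stretch of DNA; COL4A1 is read on the minus strand at chr13:110307108-110307407 and COL4A2 on the plus strand at chr13:110307034-110307333.
COL4A1: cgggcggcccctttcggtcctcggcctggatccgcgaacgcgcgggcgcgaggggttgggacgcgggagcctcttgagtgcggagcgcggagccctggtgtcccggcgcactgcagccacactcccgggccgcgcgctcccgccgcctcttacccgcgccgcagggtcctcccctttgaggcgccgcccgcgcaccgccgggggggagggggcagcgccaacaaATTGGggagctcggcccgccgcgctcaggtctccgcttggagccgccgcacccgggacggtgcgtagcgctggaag
COL4A2: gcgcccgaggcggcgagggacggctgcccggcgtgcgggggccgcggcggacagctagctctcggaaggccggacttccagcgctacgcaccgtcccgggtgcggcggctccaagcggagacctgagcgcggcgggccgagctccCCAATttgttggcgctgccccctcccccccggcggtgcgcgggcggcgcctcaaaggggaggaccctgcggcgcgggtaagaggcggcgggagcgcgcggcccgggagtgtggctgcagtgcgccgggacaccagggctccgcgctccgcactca
Each of the next windows is read 5′ to 3′ on the minus strand, with matches to the kappaB consensus, the DNA element bound by NF-kB proteins, in capitals. The COL6A3 window (chr2:237414115-237414414) had no match, the first ITGB1 window (chr10:32958181-32958480) had 1, and the first of the LAMB3 windows (chr1:209652376-209652675) had 3, of which 2 overlap.
COL6A3: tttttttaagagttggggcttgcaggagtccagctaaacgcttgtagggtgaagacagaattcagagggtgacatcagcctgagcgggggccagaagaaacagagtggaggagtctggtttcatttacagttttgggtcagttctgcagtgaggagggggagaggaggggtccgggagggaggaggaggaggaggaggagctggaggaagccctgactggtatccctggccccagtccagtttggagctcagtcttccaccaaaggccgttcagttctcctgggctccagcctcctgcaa
ITGB1: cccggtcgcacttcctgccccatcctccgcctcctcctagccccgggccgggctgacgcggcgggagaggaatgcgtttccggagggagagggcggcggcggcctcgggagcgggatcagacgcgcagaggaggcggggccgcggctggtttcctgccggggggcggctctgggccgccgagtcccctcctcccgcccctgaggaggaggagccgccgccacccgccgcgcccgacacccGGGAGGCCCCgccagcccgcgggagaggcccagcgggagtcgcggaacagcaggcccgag
LAMB3: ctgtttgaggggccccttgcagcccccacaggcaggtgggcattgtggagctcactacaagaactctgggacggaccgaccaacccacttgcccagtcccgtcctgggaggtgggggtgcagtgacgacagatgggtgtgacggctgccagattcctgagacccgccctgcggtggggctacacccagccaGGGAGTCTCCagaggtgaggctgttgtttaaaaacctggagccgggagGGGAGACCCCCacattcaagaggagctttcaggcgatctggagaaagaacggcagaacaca
On either strand, a kappaB match stood in 18.1% of the member windows, against 11.3% of all 35116 windows. For CCAAT the shares were 26.4% of member windows and 34.6% of all windows, for the AP-1 letters TGANTCA 4.17% and 7.71%, for TATAAA 12.5% and 11.5%, and for the GC box GGGCGG 56.9% and 45%. A match describes the letters of a window and says nothing about binding in these cells.

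Of the 73 members, 39 were bright enough to test. The lowest 40% of genes by mean signal, under a log2 signal of 5.805, were set aside as dim, which left 11026 genes in the tests. The tested members were 25 collagens, 6 laminins and 8 integrins, and the dim ones 18 collagens, 4 laminins and 12 integrins. Just inside the limit stood ITGB2 (mean 5.89), COL4A1 (5.99) and LAMB3 (6.01), and just outside it ITGB7 (5.76), ITGA11 (5.59) and LAMA2 (5.54).

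Of the groups of chains, 1 was dim throughout: all 3 measured collagen-binding alpha chains (ITGA2, ITGA10, ITGA11) were dim, at 3.75 to 5.79 over all arrays. ITGA1, another collagen-binding alpha chain, was not read, because its transcript cluster also carries the symbol PELO. Also dim were the type IV chains COL4A3, COL4A4, COL4A5 and COL4A6, the fibrillar chains COL11A1 and COL24A1, the laminin alpha chains LAMA1, LAMA2 and LAMA4, and ITGB3 and ITGB6, beta partners of ITGAV. The dim members ranged from 2.99 for COL6A5 to 6.53 for ITGB8, and 4 of the 34 (ITGB8, ITGA9, ITGB7, LAMA2) were above the limit on at least 1 array. ITGB8, another beta partner of ITGAV, lay at 5.49 to 6.53 on the 8 Nupr1-set arrays and at 4.5 to 5.3 on the 6 NF-kB-set arrays.

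Among the tested members, 4 had a mean log2 signal above 10: the fibrillar chain COL1A2 (10.23), the beta chain ITGB1 (10.31), which pairs with many alpha chains, and the laminin receptor chains ITGA3 (10.5) and ITGB4 (10.25). COL5A2 (9.67), the alpha-2 chain of fibrillar type V collagen, and the laminin gamma chain LAMC1 (9.15) followed below that level. Because each gene has its own probes, these levels do not rank the genes by transcript number. COL6A3, the alpha-3 chain of type VI collagen, had the widest range of all members, from 6.2 to 9.83.

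With 9 h in EBSS against mock medium, 22 of the 39 tested members (56.4%) changed, against 51.9% of all tested genes, and they moved in both directions. The vitronectin receptor chain ITGAV fell most, by 1.54 ± 0.11 (SE; 2.9-fold lower), and the fibrillar chains COL1A2 and COL5A2, the receptor chains ITGA6 and ITGB1, the laminin chain LAMB1 and COL6A3 fell with it. ITGB4, the hemidesmosomal partner of ITGA6, rose most, by 0.87 ± 0.09 (1.83-fold higher). In all, 15 of 39 members (38.5%) rose and 7 (17.9%) fell, where 22.6% of all 11026 tested genes rose and 29.3% fell. Tests are limma's moderated test with Benjamini-Hochberg adjustment over all 11026 genes, called at an adjusted p under 0.05, in 1 model over the 14 arrays with medium, time, siRNA and set as terms. The comparison rests on 3 pairs of arrays, 1 for each siRNA.

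ITGAV pairs with several beta chains to bind matrix proteins that carry the RGD peptide. Its signals were 6.17, 6.45 and 6.51 in EBSS with siRelA, siRelB and siCtrl, against 7.57, 7.97 and 8.2 in mock medium. The lowest mock array stood above the highest EBSS array by more than 1 log2 unit (adjusted p 1.95e-09). ITGB1 had 9.9, 9.3 and 10.13 in EBSS, against 10.48, 9.86 and 10.77 in mock medium for the same siRNAs. Its media overlapped across siRNAs, since siRelB mock lay below siCtrl EBSS, and within every siRNA the EBSS array was lower (-0.59 ± 0.09, adjusted p 1.01e-05). ITGA5, the fibronectin receptor alpha chain, gave -0.07 ± 0.10 with a 95% interval from -0.28 to 0.13, and ITGB5 rose by 0.27 ± 0.11 (adjusted p 0.0402).

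The chains of the laminin receptors parted. ITGB4 had 10.25, 10.2 and 9.68 in EBSS, against 9.3, 9.25 and 8.97 in mock medium with siRelA, siRelB and siCtrl. All EBSS arrays stood above all mock arrays (adjusted p 1.77e-07). ITGA6, which joins ITGB4 in the hemidesmosome receptor, had 6.67, 7.11 and 7.17 in EBSS, against 7.41, 7.66 and 7.96 in mock medium. Here all EBSS arrays lay below all mock arrays (-0.69 ± 0.12, adjusted p 0.000121). ITGA3, which joins ITGB1, had 10.23, 9.99 and 10.09 in EBSS, against 9.74, 9.69 and 9.87 in mock medium (0.33 ± 0.09, adjusted p 0.00404). The rise of ITGA3 passed the threshold in 12 of 14 fits that left out 1 array, and without either siRelA array of the NF-kB set its adjusted p was 0.0575 or 0.0568.

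Of 9 tested fibrillar chains, 2 fell and 1 rose. COL1A2 had 10.4, 9.22 and 9.7 in EBSS, against 10.78, 10.66 and 10.6 in mock medium with siRelA, siRelB and siCtrl. Its differences were -0.38, -1.44 and -0.90 for these siRNAs, all in 1 direction (-0.91 ± 0.13, adjusted p 6.32e-06). COL1A1, whose product forms the type I trimer with COL1A2, did not pass the threshold, with 0.22 ± 0.11 and adjusted p 0.0951. COL5A2 had 9.51, 9.61 and 8.88 in EBSS, against 10.16, 10.42 and 9.67 in mock medium, lower within each siRNA (-0.75 ± 0.09, adjusted p 1.64e-06). COL3A1 (-0.10 ± 0.12) and COL2A1 (0.14 ± 0.12) did not pass it either, and COL27A1 rose by 0.35 ± 0.11.

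Type VI collagen is a trimer of different chains, and here its chains moved apart. COL6A3 had 7.74, 7.43 and 6.2 in EBSS, against 8, 7.78 and 6.78 in mock medium. It was lower in EBSS with every siRNA, by less than the spread between siRNAs (-0.40 ± 0.10, adjusted p 0.00206). COL6A1 rose by 0.29 ± 0.09 (adjusted p 0.0167) and COL6A2 rose by 0.34 ± 0.10 (adjusted p 0.00933). Among the basement membrane chains none of the 3 tested passed the threshold: COL4A1 gave -0.07 ± 0.11, COL4A2 0.03 ± 0.11 and COL18A1 0.15 ± 0.10, with 0 of them at an unadjusted p under 0.05.

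LAMB1, the beta chain of widespread laminins, had 6.85, 5.97 and 6.36 in EBSS, against 7.21, 6.85 and 6.91 in mock medium with siRelA, siRelB and siCtrl. It was lower in EBSS within each siRNA (-0.60 ± 0.12, adjusted p 0.000457). LAMB3, the beta chain of the laminin that anchors epithelia, rose by 0.29 ± 0.11 (adjusted p 0.0374) and LAMC3 rose by 0.32 ± 0.10 (adjusted p 0.0176). LAMC1 gave -0.18 ± 0.09 (adjusted p 0.106) and LAMA5, the alpha chain of adult basement membranes, 0.12 ± 0.10 (adjusted p 0.291).

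The remaining rises were small. They were those of COL23A1 (0.40 ± 0.10), COL16A1 (0.36), COL9A3 (0.34), COL9A2 (0.31), COL22A1 (0.29), COL13A1 (0.28) and COL7A1 (0.27), the last of which forms the anchoring fibrils below epithelia. The 34 dim members, which were not tested, had a median difference of 0.15 with 29 above 0, and the dim genes of the series one of 0.12. The tested members had a median of 0.22 and all tested genes one of 0.05. The part of this shift of low signals in the small rises was not tested.

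All 7 falls and the rises of ITGB4 and COL23A1 passed the threshold in each of the 14 fits that left out 1 array. The other 13 rises lost it in at least 1 of them, with adjusted p-values up to 0.234; their arrays are those of siRelA or siRelB, of siCtrl for COL6A1, COL7A1, COL9A2, ITGB5 and LAMB3, and of the Nupr1 set at 3 or 6 h for COL22A1 and ITGB5. Without 1 of the siRelA or siRelB arrays, 11 to 13 members were called instead of 22. Without a filter on dim genes COL7A1, COL9A2, COL22A1, ITGB5 and LAMB3 were not called. Genomic span moved with the result over all genes: the genes that fell had a median span of 48.3 kb and those that rose 11.7 kb (Spearman's rho -0.424 over 11017 genes that share the arrays, given as a description), against 79.4 kb and 37.6 kb for the members that fell and rose (rho -0.119 over the 39 members). With that trend removed COL6A3 was no longer called (-0.18, adjusted p 0.1), COL5A2 gave -0.47, LAMB1 -0.39 and COL23A1 0.68. Among the small rises COL27A1 then gave 0.60, COL22A1 0.56, COL13A1 0.53, ITGB5 0.52 and LAMC3 0.52, and COL9A2 was not called (adjusted p 0.082). Markers also moved: CD68 rose by 0.56, ACTA2 rose by 0.51 and KRT19 rose by 0.49, ZEB1, a mesenchymal transcription factor, fell by 0.76, and the 8 fibroblast markers averaged 4.41 to 4.54 on the EBSS arrays, against 4.26 to 4.36 on the mock arrays. The 4 leukocyte markers averaged 5.64 to 5.65 on the EBSS arrays, against 5.45 to 5.51 on the mock arrays, with PTPRC at 2.41 to 2.8 over all arrays. Their part in the result was not tested. In total RNA, fewer cells and less RNA per cell cannot be told apart.

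**Figure D1:**
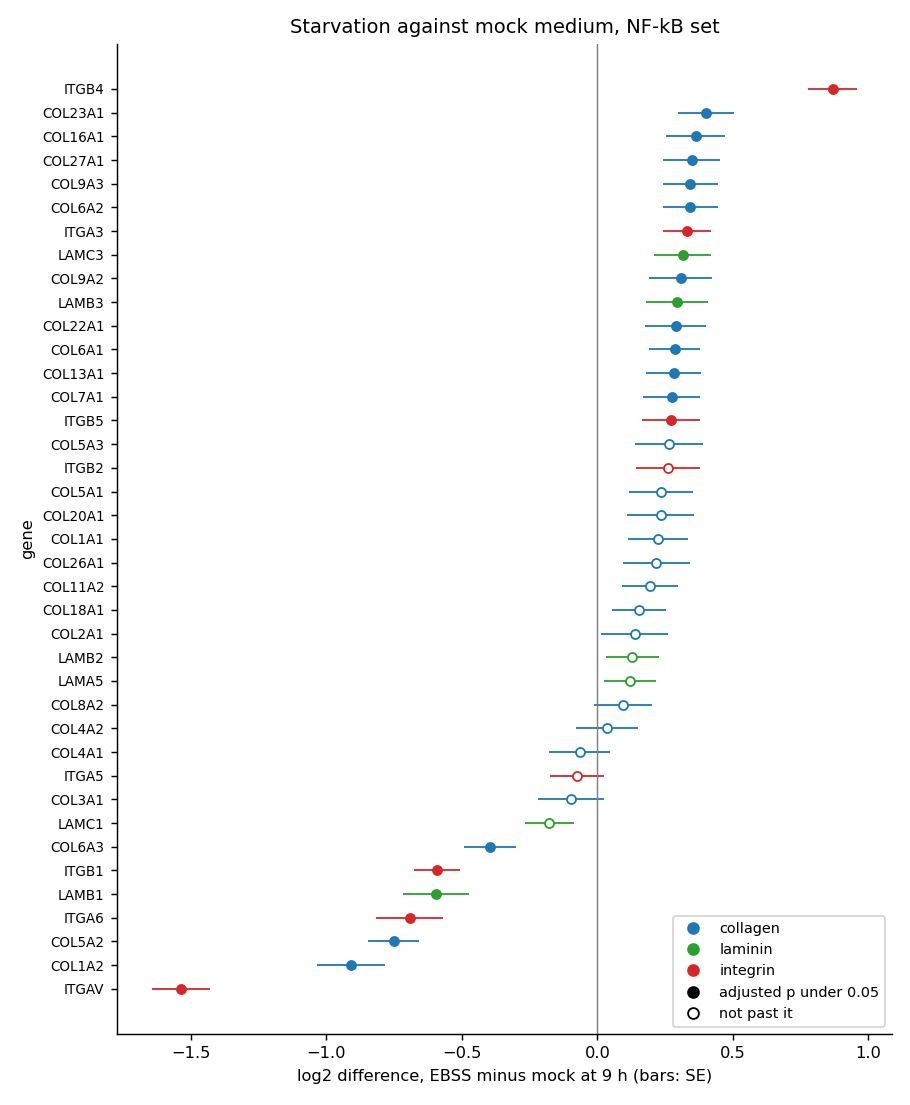
Log2 difference of each of the 39 tested members between EBSS and mock medium at 9 h in the NF-kB set, with its standard error, coloured by family; filled points passed an adjusted p under 0.05. ITGAV stands alone at -1.54 and ITGB4 at 0.87, and the small rises lie between 0.27 and 0.40.

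**Figure D2:**
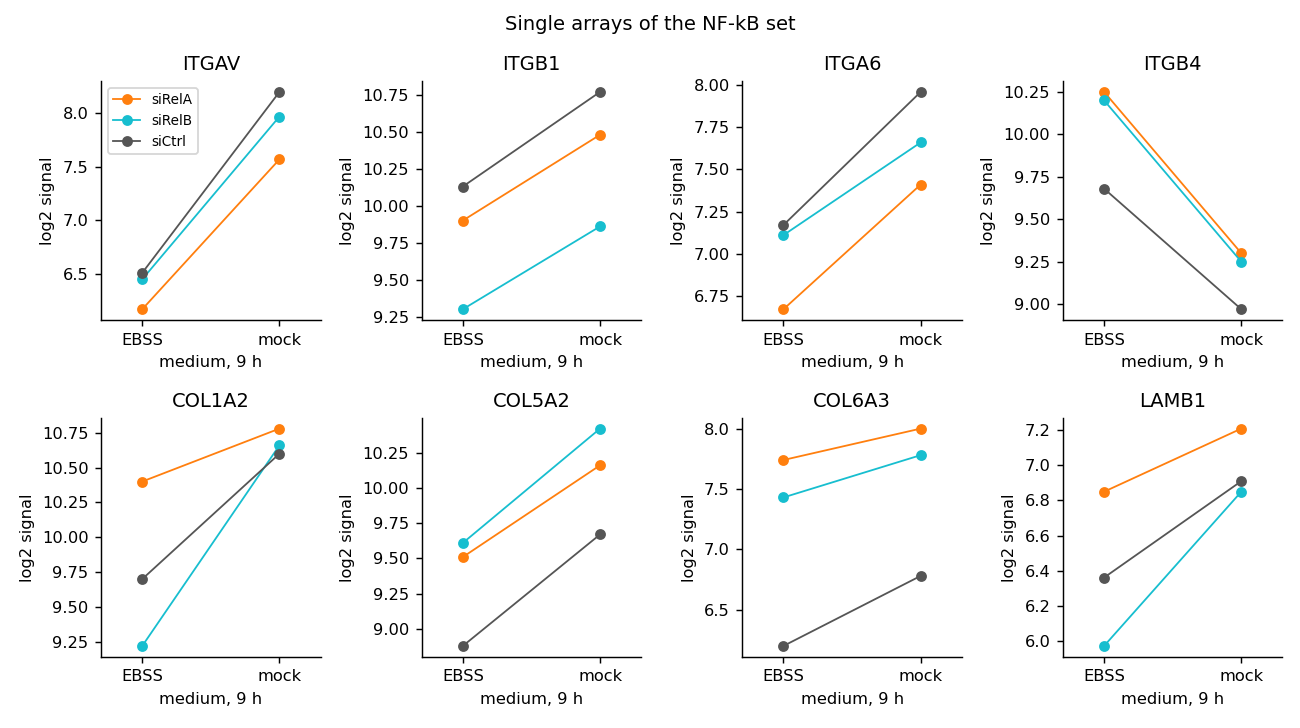
Log2 signal of 8 members on the 6 arrays of the NF-kB set, EBSS left and mock medium right, with a line for each siRNA. For ITGAV, ITGA6, ITGB4, COL1A2 and COL5A2 the 2 media do not overlap, and the COL6A3 lines of siRelA and siRelB run above that of siCtrl.

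The time course in the Nupr1 set follows the members over hours in EBSS. It has the 0 h arrays as baseline and 2 pairs of arrays (siNupr1 and siCtrl) at each time. The set has no unstarved array at 3, 6 or 9 h, so starvation and hours in culture cannot be told apart in it. Fewer members passed the threshold than against mock medium. COL1A2 was lower at every time, with differences from -0.67 to -0.96, COL4A1 and COL4A2 fell at 9 h, and ITGB4 rose at 6 and 9 h. The 3 h comparison had 0 rises and 1 fall among the 39 members, where 3.27% of all tested genes rose and 9.07% fell (12.3% in all). The 6 h comparison had 2 rises and 4 falls, where 7.65% of all genes rose and 15.7% fell (23.4% in all). The 9 h comparison had 1 rise and 3 falls, where 9.19% rose and 15.1% fell (24.3% in all). At each time the members' share (2.56%, 15.4% and 10.3%) was under that of all genes.

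COL1A2 at 0, 3, 6 and 9 h had 10.99, 10.18, 10.18 and 9.97 with siNupr1 and 10.67, 10.02, 10.14 and 9.77 with siCtrl. Every later array lay below both 0 h arrays. The differences from 0 h were -0.73, -0.67 and -0.96 at 3, 6 and 9 h, each ± 0.15 (adjusted p 0.00362, 0.00357 and 0.000127). The 9 h fall passed the threshold in all 14 fits without 1 array; the 3 h fall lost it without the siNupr1 array at 3 h (adjusted p 0.0632) and the 6 h fall without the siNupr1 array at 6 h (0.0582).

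ITGB4 at 0, 3, 6 and 9 h had 10.37, 10.68, 10.92 and 10.53 with siNupr1 and 10.42, 10.72, 11.18 and 10.98 with siCtrl. It was highest at 6 h with both siRNAs. Its difference was 0.66 ± 0.11 at 6 h (adjusted p 0.000254), held in all 14 fits without 1 array, and 0.36 ± 0.11 at 9 h (adjusted p 0.0214), which gave 0.19 without the siCtrl array at 9 h (adjusted p 0.295) and 0.26 without that at 0 h (0.235). ITGA3, the other laminin receptor chain to rise, gave 0.41 ± 0.11 at 6 h (adjusted p 0.00838), lost without the siCtrl arrays at 0 h (0.16) or 6 h (0.207).

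The head-to-head type IV genes were both lower at later times. COL4A1 had 6.58, 6, 6.06 and 6.12 at 0, 3, 6 and 9 h with siNupr1 and 6.03, 5.8, 5.63 and 5.61 with siCtrl. The siCtrl arrays of COL4A1 at 6 and 9 h were under the limit for dim genes. COL4A2 had 7.38, 6.81, 6.81 and 6.66 with siNupr1 and 6.85, 6.84, 6.65 and 6.46 with siCtrl. For both genes the siNupr1 array at 0 h was the highest of all 14 arrays. COL4A1 fell by 0.46 ± 0.14 at 6 h (adjusted p 0.0218) and by 0.44 ± 0.14 at 9 h (0.0263), and COL4A2 fell by 0.55 ± 0.14 at 9 h (0.00686), with -0.38 ± 0.14 at 6 h, not past the threshold (0.0548). Without the siNupr1 array at 0 h the COL4A2 difference at 9 h was -0.34 (adjusted p 0.177), and the COL4A1 calls were lost without any 1 of the 4 arrays they compare, with adjusted p-values up to 0.176 at 6 h and 0.214 at 9 h. With array weights COL4A1, COL4A2 and ITGB4 were not called at 9 h, and with quantile normalization repeated COL4A1 was not (adjusted p 0.06).

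COL5A2 fell at 6 h by 0.52 ± 0.11 (adjusted p 0.00228; 0.129 without the siCtrl array at 6 h) and gave -0.11 ± 0.11 at 9 h. ITGAV fell at 6 h by 0.41 ± 0.13 (adjusted p 0.0301), with -0.61 for siCtrl and -0.20 for siNupr1. Without the siCtrl array at 0 h its 6 h difference was -0.21 (adjusted p 0.442), without that at 6 h the adjusted p was 0.32, and without the siNupr1 array at 6 h it was 0.0637. It was also lost with quantile normalization repeated (0.0792) and with the span trend removed (0.06). No laminin chain passed the threshold at 3, 6 or 9 h against 0 h in limma's test, with 0, 1 and 0 of the 6 tested at an unadjusted p under 0.05.

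Between 9 h and 3 h of EBSS 0 of 39 members passed the threshold, where 4.68% of all genes rose and 2.66% fell (7.34% in all), and 4 members had an unadjusted p under 0.05. The 2 with the smallest p, neither past the threshold, were ITGA6 (0.40 ± 0.15, adjusted p 0.117) and COL18A1 (-0.30, adjusted p 0.14). ITGA6 passed it without either 0 h array (adjusted p 0.0484 and 0.0488).

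**Figure D3:**
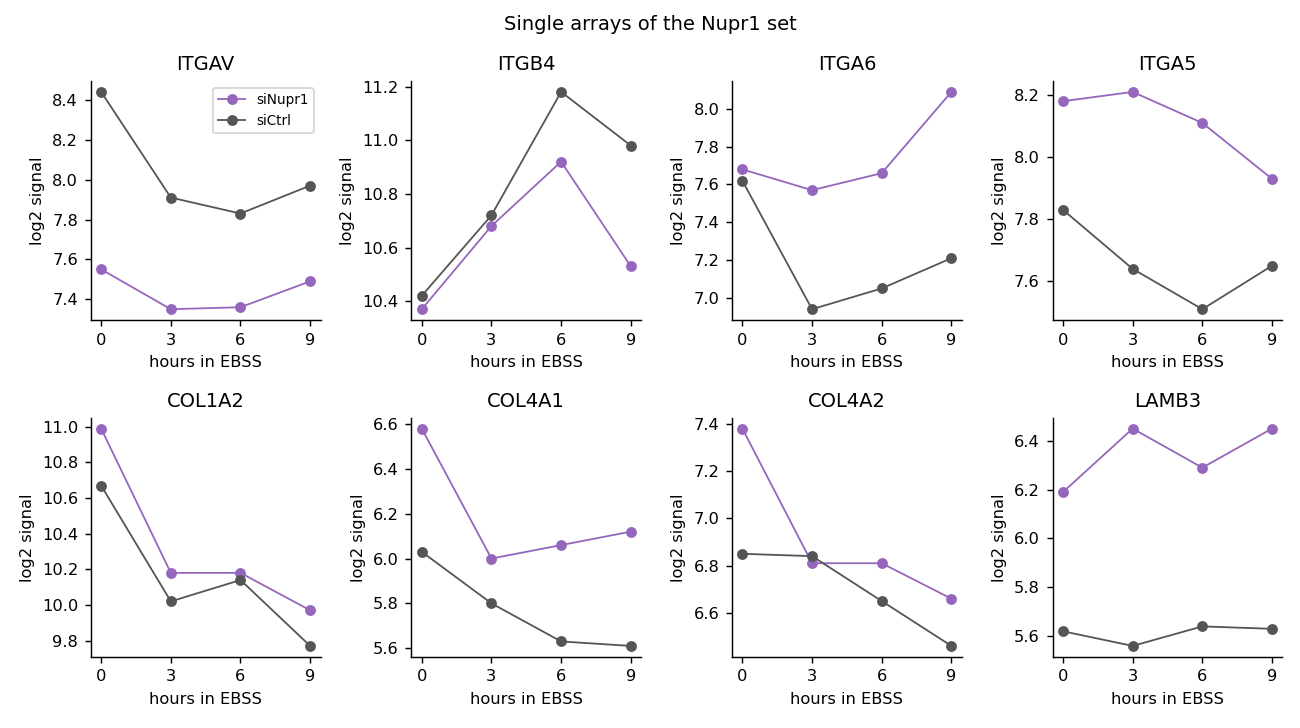
Log2 signal of 8 members on the 8 arrays of the Nupr1 set by hours in EBSS, with 1 line for siNupr1 and 1 for siCtrl. COL1A2 declines with both siRNAs, ITGB4 peaks at 6 h, and the siNupr1 line of LAMB3 lies above the siCtrl line and that of ITGAV below it at all 4 times.

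Silencing of Nupr1, a stress-induced chromatin protein, was compared with siCtrl over 4 pairs of arrays at 0, 3, 6 and 9 h. The laminin chain LAMB3 rose most, by 0.73 ± 0.10 (1.66-fold higher), with ITGA6, ITGA5, COL4A1, LAMB1, COL6A1 and COL6A3 also higher, and ITGAV fell by 0.60 ± 0.09 with ITGB1 (-0.25 ± 0.07). In all, 7 of 39 members (17.9%) rose and 2 (5.13%) fell, where 9.86% of all tested genes rose and 8.58% fell (18.4% in all).

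LAMB3 at 0, 3, 6 and 9 h had 6.19, 6.45, 6.29 and 6.45 with siNupr1 and 5.62, 5.56, 5.64 and 5.63 with siCtrl. Every siNupr1 array lay above every siCtrl array, and the siCtrl arrays were under the limit for dim genes (adjusted p 7.21e-05). The mean that took LAMB3 past that limit (6.01 against 5.805) includes the siNupr1 arrays. Its place among the tested members thus rests in part on the arrays compared here. Without a filter on dim genes the LAMB3 call was kept. LAMB1 rose by 0.38 ± 0.11 (adjusted p 0.0159), with 6.87, 6.88, 6.83 and 6.87 with siNupr1 and 6.73, 6.4, 6.58 and 6.2 with siCtrl. Its call was lost without either 3 h or either 9 h array, with adjusted p-values of 0.0761 to 0.101. LAMC1 (-0.08 ± 0.08) and the other laminin chains did not pass the threshold.

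ITGAV at 0, 3, 6 and 9 h had 7.55, 7.35, 7.36 and 7.49 with siNupr1 and 8.44, 7.91, 7.83 and 7.97 with siCtrl, with no overlap (adjusted p 0.000242). ITGA5 had 8.18, 8.21, 8.11 and 7.93 with siNupr1 and 7.83, 7.64, 7.51 and 7.65 with siCtrl, also with no overlap and in the other direction (0.45 ± 0.09, adjusted p 0.00139). These alpha chains both pair with ITGB1. ITGA6 had 7.68, 7.57, 7.66 and 8.09 with siNupr1 and 7.62, 6.94, 7.05 and 7.21 with siCtrl. At 0 h its arrays were 0.06 apart and at 9 h 0.88 apart (0.54 ± 0.11 over the times, adjusted p 0.0017).

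ITGB1 differed by -0.49, -0.28, -0.20 and -0.03 at 0, 3, 6 and 9 h (adjusted p 0.0225). Its call was lost without either array at 0, 3 or 6 h, with -0.17 and adjusted p-values up to 0.185 without a 0 h array. ITGB4 gave -0.20 ± 0.08 and ITGA3 -0.03 ± 0.08, both not past the threshold. Among the collagens COL4A1 rose by 0.42 ± 0.10 (adjusted p 0.00578), with 0.21 to 0.55 at the 4 times. Its siCtrl arrays at 6 and 9 h (5.63 and 5.61) were under the limit for dim genes (5.805). The mean that took COL4A1 past that limit (5.99) includes the siNupr1 arrays. COL4A2 gave 0.21 ± 0.10 (adjusted p 0.145). COL6A1 rose by 0.36 ± 0.08 (adjusted p 0.00448; up to 0.0617 without a 3 h array), and COL6A3 rose by 0.29 ± 0.08 (adjusted p 0.0203; 0.0671 to 0.101 without an array at 0, 3 or 6 h). LAMB3, ITGA6, ITGA5, COL4A1 and ITGAV passed the threshold in each of the 14 fits without 1 array, the one with the doubtful title included. In the same comparison KRT19 rose by 0.61 and CD68 rose by 0.55, while the 4 leukocyte markers averaged 5.32 to 5.51 with siNupr1 and 5.13 to 5.38 with siCtrl, and PTPRC, which defines leukocytes, lay at 2.41 to 2.8. Their part in the result was not tested.

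A change of the siNupr1 difference with hours was tested as a slope, and 0 of 39 members and 0% of all 11026 genes passed the threshold in limma's test (6 members and 2149 genes at an unadjusted p under 0.05). The 2 with the smallest p, neither past it, were ITGA6 (0.08 ± 0.02 per hour, adjusted p 0.129) and ITGB1 (0.05 ± 0.02 per hour, adjusted p 0.144). Fitted on the Nupr1 set alone, 4 integrin chains passed it: ITGA6 (0.08) and ITGB1 (0.05) with positive slopes and ITGA3 (-0.05) and ITGB4 (-0.05) with negative ones, at adjusted p-values from 0.0393 to 0.045.

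RelA and RelB are DNA-binding subunits of NF-kB, RelA mainly of its canonical and RelB of its non-canonical arm. Each siRNA was compared with siCtrl over 2 pairs of arrays, in EBSS and in mock medium at 9 h, and both comparisons use the same 2 siCtrl arrays. COL6A3 rose most with each, by 1.38 ± 0.12 with siRelA (2.6-fold higher) and by 1.11 ± 0.12 with siRelB (2.17-fold higher), followed by COL5A2. ITGB1 fell by 0.88 ± 0.10 with siRelB. With siRelA 5 members rose and 2 fell, where 10.1% of all tested genes rose and 11.4% fell (21.5% in all). With siRelB 3 rose and 1 fell, where 7.58% rose and 8.55% fell (16.1% in all). In both the members' share, 17.9% with siRelA and 10.3% with siRelB, was under that of all genes.

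COL6A3 had 7.74 in EBSS and 8 in mock medium with siRelA and 7.43 and 7.78 with siRelB, against 6.2 and 6.78 with siCtrl. Both siCtrl arrays of the NF-kB set lay below all others of the series (siRelA adjusted p 2.83e-07, siRelB adjusted p 4.78e-06). The siCtrl arrays of the Nupr1 set had 9.21, 9.37, 9.37 and 9.6, above all siRelA and siRelB arrays. Both comparisons share the siCtrl arrays of the NF-kB set, so a low siCtrl level and a rise with each siRNA cannot be told apart. The promoter window of COL6A3 shown above held none of the 5 motifs searched. The call with each siRNA held in all 14 fits without 1 array, and each such fit kept at least 1 siCtrl array of the NF-kB set. COL5A2 had 9.51 and 10.16 with siRelA and 9.61 and 10.42 with siRelB, in EBSS and mock medium, against 8.88 and 9.67 with siCtrl. In each medium both siRNAs were above siCtrl (siRelA 0.56 ± 0.11, adjusted p 0.00151; siRelB 0.74 ± 0.11, adjusted p 0.000176), also in all 14 such fits.

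ITGB1 had 9.3 in EBSS and 9.86 in mock medium with siRelB and 9.9 and 10.48 with siRelA, against 10.13 and 10.77 with siCtrl. The order of the siRNAs was the same in both media. With siRelB it fell by 0.88 (adjusted p 1.75e-05), with siRelA it gave -0.26 ± 0.10 (adjusted p 0.0836), and siRelB minus siRelA was -0.62 ± 0.10 (adjusted p 0.000725), past the threshold in all 14 fits without 1 array. The first ITGB1 window above held 1 kappaB match, the other ITGB1 window none.

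ITGB4 had 10.25 and 9.3 with siRelA and 10.2 and 9.25 with siRelB, in EBSS and mock medium, against 9.68 and 8.97 with siCtrl. In either medium siCtrl was lowest (siRelA 0.45 ± 0.11, adjusted p 0.0058; siRelB 0.41 ± 0.11, adjusted p 0.0157). Both calls were lost without the siCtrl array in EBSS (0.156 and 0.277). Without the EBSS array of the siRNA itself the adjusted p was 0.0823 with siRelA and 0.181 with siRelB, and without the siRelB mock array it was 0.0652. With siRelA, ITGA6 fell by 0.53 ± 0.15 (adjusted p 0.0166; 0.0605 to 0.174 without 1 of the 4 arrays compared) and ITGAV fell by 0.48 ± 0.13 (adjusted p 0.0122; 0.211 and 0.187 without the siCtrl or siRelA mock array). With siRelB they gave -0.18 ± 0.15 and -0.14 ± 0.13, not past the threshold. The siRelB minus siRelA difference was 0.35 ± 0.15 for ITGA6 and 0.34 ± 0.13 for ITGAV, with adjusted p-values of 0.168 and 0.111.

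LAMC1 rose by 0.33 ± 0.11 with siRelA (adjusted p 0.0377), which 8 of the 14 fits without 1 array did not call (up to 0.238). COL1A2 rose by 0.44 ± 0.15 with siRelA at an adjusted p of 0.0472. It had 10.4 in EBSS and 10.78 in mock medium with siRelA, against 9.7 and 10.6 with siCtrl, and without the siRelA array in EBSS the difference was 0.04 (adjusted p 0.913); without the siRelA mock array it was 0.84 (adjusted p 0.00173). That call was lost in 9 of the 14 fits, with quantile normalization repeated (0.0696) and with the span trend removed (0.0733).

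Between the 2 subunits, siRelB against siRelA, 0 of 39 members rose and 3 fell, where 5.46% of all genes rose and 4.61% fell (10.1% in all). Beside ITGB1 these were COL1A2 (-0.65 ± 0.15, adjusted p 0.00948) and LAMB1 (-0.62 ± 0.15, adjusted p 0.01). LAMB1 had 5.97 in EBSS and 6.85 in mock medium with siRelB, against 6.85 and 7.21 with siRelA. For COL1A2 the difference was -1.18 in EBSS and -0.12 in mock medium. Without either EBSS array it was -0.25 (adjusted p 0.393 without the siRelA array and 0.444 without the siRelB array), and without either mock array -1.05. The LAMB1 difference lost its call in the same fits (0.206 and 0.265). COL6A3 (-0.26 ± 0.12, adjusted p 0.177) and COL5A2 (0.18 ± 0.11, adjusted p 0.38) did not pass it, with 95% intervals from -0.51 to -0.02 and from -0.06 to 0.42. Markers also moved: ACTA2 rose by 0.73 with siRelA and by 0.66 with siRelB, and ZEB1 fell by 0.51 and by 0.67. VIM rose by 0.26 with siRelA, and KRT8 fell by 0.21 with siRelB. For siRelB against siRelA, KRT8 (-0.36), VIM (-0.32) and KRT18 (-0.22) fell. The 8 fibroblast markers averaged 4.28 to 4.5 with siRelA and 4.36 to 4.54 with siRelB, against 4.26 to 4.41 with siCtrl. Their part in the result was not tested.

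**Figure D4:**
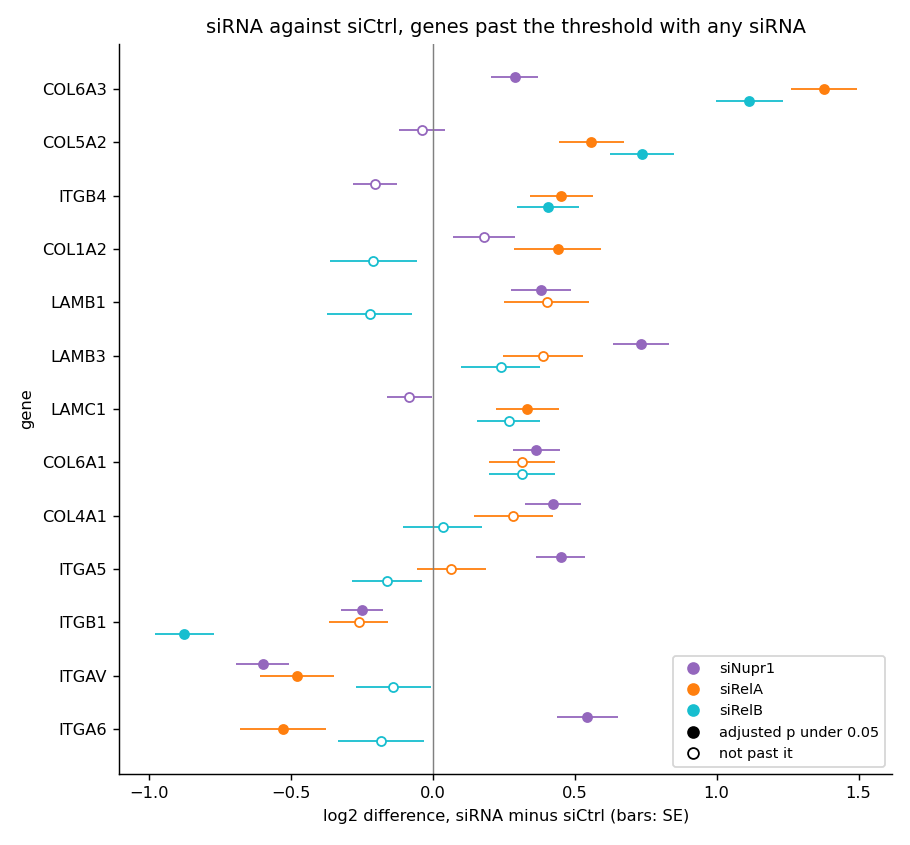
Log2 difference from siCtrl, with its standard error, for the 13 members past the threshold with any siRNA; filled points passed an adjusted p under 0.05. COL6A3 is displaced furthest, at 1.38 with siRelA and 1.11 with siRelB, and ITGB1 lies at -0.88 with siRelB.

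The 9 h starvation difference was set against itself in the 2 sets, as Nupr1 set minus NF-kB set. The sets differ in baseline, which is 0 h in the Nupr1 set and mock medium at 9 h in the NF-kB set, so baseline and set cannot be told apart. The difference was positive for 5 of 39 members and negative for 5, where 16.4% of all tested genes had a positive and 8.11% a negative one (24.5% in all). The split was 3 positive and 11 negative with the span trend removed, and 5 positive and 1 negative with array weights. Of all genes called with the span trend removed 67.5% were positive, against 66.9% in the main fit. ITGAV (1.27 ± 0.17, adjusted p 2.15e-05), COL6A3 (0.71 ± 0.15), ITGA6 (0.70 ± 0.20), ITGB1 (0.66 ± 0.13) and COL5A2 (0.64 ± 0.15) were positive: each fell in the NF-kB set and at 9 h in the Nupr1 set gave -0.27, 0.32, 0.01, 0.06 and -0.11. In the Nupr1 set siCtrl and siNupr1 moved in opposite directions for ITGA6, ITGB1 and COL5A2. From 0 h to 9 h ITGA6 went from 7.62 to 7.21 with siCtrl and from 7.68 to 8.09 with siNupr1. ITGB1 went from 10.8 to 10.64 with siCtrl and from 10.31 to 10.6 with siNupr1. COL5A2 went from 9.82 to 9.88 with siCtrl and from 9.93 to 9.64 with siNupr1. COL4A2 (-0.59), COL13A1 (-0.54), ITGB4 (-0.51), COL27A1 (-0.50) and COL6A1 (-0.43) were negative. ITGAV, COL6A3, ITGB1 and COL5A2 passed the threshold in all 14 fits without 1 array. COL13A1, COL27A1, COL4A2, COL6A1, ITGA6 and ITGB4 each lost the call in 2 to 13 of them, and with the span trend removed COL5A2 gave 0.38 (adjusted p 0.0567), COL6A1 -0.38 (0.0592) and ITGA6 0.52 (0.0764). With array weights COL13A1, COL27A1, COL4A2 and COL6A1 were not called. COL1A2, with -0.96 and -0.91 in the sets, had a difference between them of -0.05 ± 0.20 (95% interval -0.47 to 0.36). KRT19 (-0.67), ZEB1 (0.88) and CD68 (-0.49) also differed between the sets, and their part in the result was not tested.

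The siCtrl arrays in EBSS at 9 h, the only condition both sets share, differed in level. COL6A3 had 9.6 in the Nupr1 set and 6.2 in the NF-kB set, 3.39 log2 units apart. ITGAV had 7.97 and 6.51, and ITGB4 had 10.98 and 9.68. These were the 3 of 39 tested members at least 2-fold apart (7.69%), against 9.26% of all tested genes. Each is 1 array, so the difference has no replicate check.

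**Figure D5:**
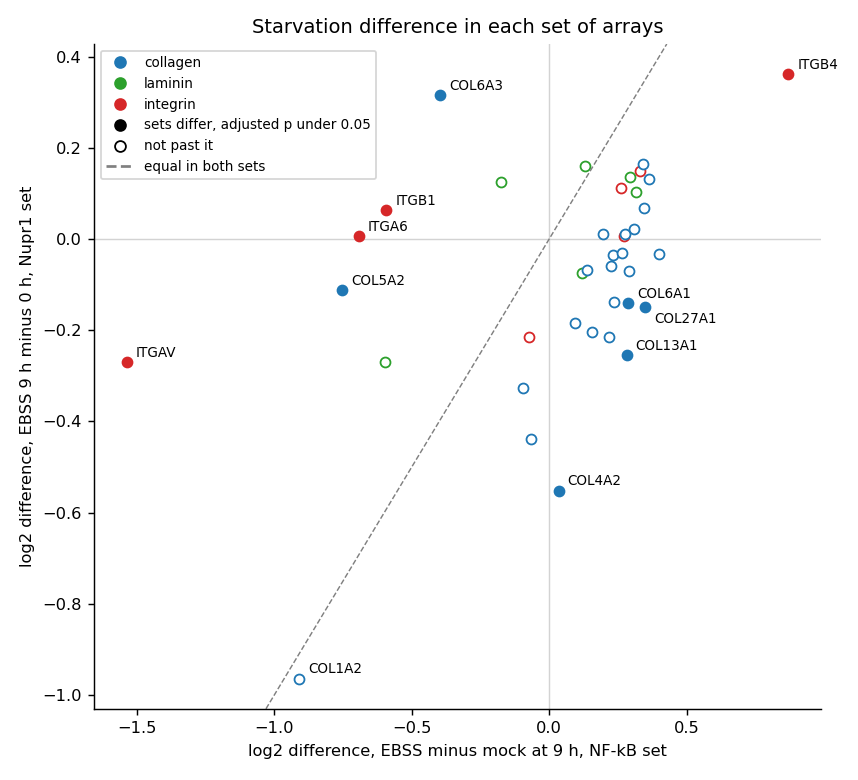
Log2 difference at 9 h of EBSS for each of the 39 tested members, with EBSS minus mock medium in the NF-kB set on the x axis and EBSS 9 h minus 0 h in the Nupr1 set on the y axis; filled points differ between the sets at an adjusted p under 0.05. ITGAV lies at -1.54 on the x axis and -0.27 on the y axis, and COL1A2 lies close to the line of equal differences.

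Genes that fold, modify and secrete collagen were read from a list of 27, of which 20 were tested. Against mock medium 4 rose and 3 fell (median 0.07), where 22.6% of all tested genes rose and 29.3% fell: MIA3, the cargo receptor that loads collagen into transport vesicles, fell by 1.07 ± 0.11, P4HA1, a prolyl hydroxylase chain, fell by 0.88 ± 0.11, and SEC23A, a coat protein of those vesicles, fell by 0.69 ± 0.10. At 9 h against 0 h 0 rose and 6 fell (median -0.13), where 9.19% of all genes rose and 15.1% fell. PCOLCE2, an enhancer of procollagen cleavage, was at -0.78 ± 0.17 and P4HA2, another prolyl hydroxylase chain, at -0.56 ± 0.13. MIA3 and SEC23A were not among these falls. Their difference between the sets was 0.90 ± 0.18 and 0.53 ± 0.15 (Nupr1 set minus NF-kB set). With siNupr1 5 rose and 0 fell, where 9.86% of all genes rose and 8.58% fell, among them the lysyl hydroxylase PLOD1 (0.50 ± 0.09), the collagen galactosyltransferase COLGALT1 (0.48), PPIB (0.34) and the collagen chaperone SERPINH1 (0.30). With siRelA 2 rose and 2 fell (10.1% and 11.4% of all genes), and with siRelB 3 rose and 0 fell (7.58% and 8.55% of all genes), PLOD1 by 0.64 ± 0.13 and by 0.38 ± 0.13 among the rises.

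Of the adaptors and kinases that link integrins to actin, 24 were tested. Against mock medium 6 rose and 6 fell (median 0.08), close to the 51.9% of all genes that changed. DOCK1 was at -0.61 ± 0.10, the integrin activator FERMT2 at -0.54 ± 0.10 and the paxillin relative TGFB1I1 at 0.61 ± 0.11. At 9 h against 0 h TGFB1I1 also rose (0.55 ± 0.13), while DOCK1 and FERMT2 were not called. Their difference between the sets was 0.58 ± 0.15 for DOCK1 and 0.64 ± 0.16 for FERMT2 (Nupr1 set minus NF-kB set). With siRelA 7 rose and 3 fell, against 10.1% and 11.4% of all genes, with PARVA at 0.64 ± 0.11 and ILK at 0.62 ± 0.12. With siRelB 3 rose and 2 fell, against 7.58% and 8.55% of all genes, and the integrin activators FERMT1 (-0.75 ± 0.15) and FERMT2 (-0.74 ± 0.13) were the falls. With siNupr1 2 rose and 1 fell, against 9.86% and 8.58% of all genes, ILK by 0.48 ± 0.09 among the rises.

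The next lists are read against the 22.6% of all genes that rose and the 29.3% that fell against mock medium, and the 9.86% and 8.58% with siNupr1. Of 8 tested further receptors, 3 rose and 2 fell against mock medium. Among them the collagen receptor kinases DDR1 (0.32 ± 0.11) and DDR2 (-0.41 ± 0.09) moved in opposite directions. In the Nupr1 set DDR2 instead rose, by 0.31 ± 0.11 at 9 h against 0 h, and DDR1 was not called. Both kinases differed between the sets (DDR1 by -0.62 ± 0.17, DDR2 by 0.72 ± 0.14, Nupr1 set minus NF-kB set). PLEC, which ties ITGB4 to keratin filaments, rose by 0.35 ± 0.09 against mock medium, by 0.85 ± 0.11 with siRelA and by 0.70 ± 0.11 with siRelB. Of 10 tested other matrix genes 3 rose and 0 fell against mock medium, with CCN1, an integrin ligand, at 0.999 ± 0.16. With siNupr1 TGFBI, another integrin ligand, rose by 0.70 ± 0.10. Of 9 tested matrix proteases and inhibitors 4 rose and 1 fell against mock medium: ADAM10, a membrane sheddase, fell by 1.05 ± 0.10. At 9 h against 0 h, in the Nupr1 set, the related sheddase ADAM17 rose by 0.92 ± 0.11. ADAM10 was not called there, nor was ADAM17 against mock medium. Both sheddases differed between the sets (ADAM10 by 1.03 ± 0.15, ADAM17 by 0.99 ± 0.15, Nupr1 set minus NF-kB set). With siNupr1 4 of these proteases and inhibitors rose and 0 fell, CTSB by 0.48 ± 0.07.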

How the data were processed

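Total RNA of MiaPaCa2 cells was hybridized to 14 whole-transcript arrays. The deposited values are log2 signals of 28869 transcript clusters, made by the authors with RMA, and the submitters' processing notes also name limma; the labels and notes used here give no software version or genome build. From GEO's platform annotation, 19310 clusters have 1 gene symbol, 1752 several and 7807 none; 19279 were matched by Entrez ID to RefSeq (GRCh38.p14). The brightest cluster stood for each of 18377 genes; COL11A2 alone among the members has several (3). Genes in the lowest 40% of means were left out as dim, and 11026 were tested.

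One limma (3.58.1, R 4.3.3) model over all 14 arrays had 9 coefficients and 5 residual degrees of freedom (19.6 after eBayes with trend), and p-values were adjusted by Benjamini-Hochberg over 11026 genes. It assumes that the effects of siRNA and medium add. Array medians lay between 5.67 and 5.84; the number of arrays limits the precision. Genes were named by a fixed rule: in each comparison the members past the threshold, up to 10 rises and 10 falls by size with values on single arrays and the others named or counted, the brightest members, the 2 smallest p where none passed, and up to 4 from each other list. Partner chains and neighbours that did not pass (such as COL1A1, COL2A1, COL3A1, COL18A1 and LAMA5) were added after their values were seen. The fit was tested on simulated data. Alternatives were the dim filter, quantile normalization, the trend with genomic span, the mean of clusters, eBayes without trend, array weights, each set alone and 14 fits without 1 array. Members and gene lists were chosen with earlier results of these data known.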

Additional observations from a re-analysis of the deposited data

Results flagged for a closer look

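The 9 h starvation difference differed between the 2 sets of arrays for 10 members in limma's test of that difference (Nupr1 set minus NF-kB set, Benjamini-Hochberg adjusted p under 0.05). It was positive for ITGAV (1.27, adjusted p 2.15e-05), ITGB1 (0.66, 0.00135), COL6A3 (0.71, 0.00179), COL5A2 (0.64, 0.00332) and ITGA6 (0.70, 0.0133). It was negative for ITGB4 (-0.51, adjusted p 0.0133), COL13A1 (-0.54, 0.0199), COL4A2 (-0.59, 0.0234), COL27A1 (-0.50, 0.0346) and COL6A1 (-0.43, 0.0419). Without the siNupr1 array at 0 h, 4 members were called, and ITGA6 gave 0.38 (adjusted p 0.198) and COL4A2 -0.38 (0.221). Baseline and set cannot be told apart here. Each group holds 1 array, so no array could be compared with others of its group.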

How the results depend on the processing

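Of 66 calls of members over all comparisons, 63 remained with quantile normalization repeated, 59 with the span trend removed, 26 in all 14 fits without 1 array and 24 in every alternative run, and 0 turned direction. Against mock medium 22 members were called, 13 with the lowest 60% of means left out and 11 to 23 without 1 array. With quantile normalization there were 29 (22 rises and 7 falls) and with the span trend removed 28 (22 rises and 6 falls), against 15 rises and 7 falls. Of all tested genes 5722 were called in the main fit, 6617 with quantile normalization and 5226 with the span trend removed. At 3 h 1 was called, and 2 with quantile normalization, with the span trend removed or without the eBayes trend, 6 with array weights and 0 to 4 without 1 array (0 without the siNupr1 array at 3 h). The calls over all tested genes at 3 h were 1361, 1137 with quantile normalization and 1190 with the span trend removed. At 6 h 6 were called, 2 to 8 without 1 array. At 9 h 4 were called, 1 with array weights and 2 to 4 without 1 array. With siNupr1 9 were called (6 to 9), with siRelA 7 (3 to 10), with siRelB 4 (3 to 5), and 3 between siRelB and siRelA (1 to 3). Between 9 h and 3 h 0 were called (0 to 1). For the difference between sets 10 were called, 6 with array weights, 14 with the span trend removed (3 positive and 11 negative) and 4 to 10 without 1 array. Over all tested genes 2698 were called for that difference, and 2392 with the span trend removed. For the siNupr1 slope 0 members were called, or 4 in the Nupr1 set alone. The cause of these shifts was not tested. Quantile normalization raised the share of all called genes that rose to 56.3% against 43.5% for EBSS against mock medium. It raised that share to 44.7% against 26.5% at 3 h, to 45.7% against 32.7% at 6 h and to 47.3% against 37.9% at 9 h. Between 9 h and 3 h it lowered the share to 51.8% against 63.8%. Removal of the span trend raised the share to 37.3% at 3 h, to 39.7% at 6 h and to 46.4% at 9 h. The siRNA and time terms already compare arrays within pairs, and no fit with a replicate number was made, since each group holds 1 array.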
